A study of Homo sapiens with 24 samples.

Results

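Long non-coding RNA (lncRNA) genes that lie away from coding genes were examined for binding of the nuclear receptor TR4 (gene NR2C2) and of the zinc-finger repressor BCL11A in HUDEP-2 cells, an established human erythroid progenitor line. A record of a RefSeq gene table (GRCh38.p14) was taken when its biotype was lncRNA, it lay on chromosomes 1 to 22 and both of its ends were more than 5 kb outside any protein-coding record. This gave 8983 of the 17795 lncRNA records of these chromosomes. Each end was widened by 1 kb to both sides, which gave 17966 of the 113504 gene-end intervals of all records. Of these, 80 had an IgG peak and were set aside, leaving 17886 intervals, called lncRNA intervals here. Most records carry provisional names, 6569 of them LOC symbols and 1942 LINC symbols. The strand was known for 5288 records, so starts and ends could be told apart for those alone. Intervals of neighbouring records overlap and are not independent: the 17966 intervals merge into 16208 loci.

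CUT&RUN brings a nuclease to chromatin through an antibody, and the DNA released around the bound protein is sequenced. Clone T carries TR4 with a C-terminal 3FLAG3MYC tag, clone B carries BCL11A with a 3HA3MYC tag, and clone TB carries both tagged proteins. Each was made by genome editing and is 1 clone, so clone and tag cannot be told apart. TR4 was profiled with the MYC antibody in clone T and with the TR4 antibody in clones T and TB. BCL11A was profiled with the MYC antibody in clone B and with the HA antibody in clones B and TB. The 9 libraries of the first set are called TR4 libraries here and the 9 of the second BCL11A libraries, whichever antibody was used. The MYC antibody in clone TB reads both proteins at once, and its libraries belong to neither set. Each of these 7 groups had 3 libraries, and IgG had 1 library per clone. The labels do not state whether a group's libraries were made from separate cultures. The p-values therefore measure the spread between libraries only, which may be technical. Tests of 9 against 9 libraries also treat those of a group as independent, although they share clone and antibody. The comparison of TR4 with BCL11A over the shared MYC epitope is the one the study describes. The files hold peaks and no expression values, so erythroid identity was not checked here.

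Many lncRNA genes have promoters of their own, and some, such as the hosts of microRNAs and small nucleolar RNAs, are long transcripts whose introns or exons carry smaller functional RNAs. TR4 binds as a dimer to repeats of the half-site AGGTCA, and BCL11A recognises the short motif TGACCA through its zinc fingers. Both are known as repressors of the fetal globin genes in adult erythroid cells, and both also occupy many other promoters.

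The start sequences of 8 of the lncRNA genes named below are shown as examples. Which of the printed bases were bound was not tested. Each covers 250 bases before to 50 bases after the annotated start, as RefSeq (GRCh38.p14) gives it, in the direction of transcription. Capitals mark the BCL11A motif TGACCA, the TR4 half-site AGGTCA, or the ETS-family core CCGGAAG, each found on either strand. LOC124901072 (chr5:135134112-135134411, + strand) and MIRLET7A1HG (chr9:94166008-94166307, + strand) had a peak of both proteins in all 18 TR4 and BCL11A libraries.
LOC124901072: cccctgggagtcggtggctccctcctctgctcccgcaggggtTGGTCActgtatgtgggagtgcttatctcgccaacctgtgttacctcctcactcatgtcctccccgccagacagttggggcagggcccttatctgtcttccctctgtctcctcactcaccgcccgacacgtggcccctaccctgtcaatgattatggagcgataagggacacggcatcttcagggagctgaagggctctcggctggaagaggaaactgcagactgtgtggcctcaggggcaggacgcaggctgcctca
MIRLET7A1HG: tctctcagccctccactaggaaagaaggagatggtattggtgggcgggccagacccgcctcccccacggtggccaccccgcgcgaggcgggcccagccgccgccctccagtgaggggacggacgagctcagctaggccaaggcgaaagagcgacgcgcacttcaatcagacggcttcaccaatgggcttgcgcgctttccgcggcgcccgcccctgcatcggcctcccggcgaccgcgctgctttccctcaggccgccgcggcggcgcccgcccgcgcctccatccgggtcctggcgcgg
LOC101929863 (chr20:45138980-45139279, - strand) and LOC105375980 (chr9:14993146-14993445, - strand) were found mainly or solely in TR4 libraries.
LOC101929863: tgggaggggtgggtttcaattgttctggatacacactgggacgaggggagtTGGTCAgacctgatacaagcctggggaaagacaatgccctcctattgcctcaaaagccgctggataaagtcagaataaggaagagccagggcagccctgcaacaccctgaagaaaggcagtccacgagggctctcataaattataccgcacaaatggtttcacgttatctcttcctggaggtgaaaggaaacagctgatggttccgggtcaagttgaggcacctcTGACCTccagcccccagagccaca
LOC105375980: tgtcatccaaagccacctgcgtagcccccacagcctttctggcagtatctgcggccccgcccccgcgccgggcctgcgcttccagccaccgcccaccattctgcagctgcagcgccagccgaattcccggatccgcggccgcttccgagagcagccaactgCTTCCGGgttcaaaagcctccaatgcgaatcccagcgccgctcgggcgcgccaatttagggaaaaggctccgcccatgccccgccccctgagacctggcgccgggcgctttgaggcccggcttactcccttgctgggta
PRECSIT (chr13:110870259-110870558, - strand) and LINC02394 (chr12:74021830-74022129, + strand) had a peak in every BCL11A library and in no TR4 one.
PRECSIT: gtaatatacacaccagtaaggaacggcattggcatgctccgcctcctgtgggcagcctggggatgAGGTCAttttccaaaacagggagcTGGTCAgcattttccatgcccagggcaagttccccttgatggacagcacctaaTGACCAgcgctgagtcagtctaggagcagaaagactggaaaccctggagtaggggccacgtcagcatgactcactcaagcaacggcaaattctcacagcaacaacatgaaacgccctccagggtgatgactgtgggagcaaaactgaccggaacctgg
LINC02394: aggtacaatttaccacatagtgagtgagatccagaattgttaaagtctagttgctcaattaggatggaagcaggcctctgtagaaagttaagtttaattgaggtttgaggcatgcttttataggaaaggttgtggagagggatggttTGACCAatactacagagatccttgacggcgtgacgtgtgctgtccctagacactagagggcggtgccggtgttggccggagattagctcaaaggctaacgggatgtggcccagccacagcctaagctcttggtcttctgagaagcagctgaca
NORAD (chr20:36050911-36051210, - strand) and MALAT1 (chr11:65497488-65497787, + strand), both widely expressed lncRNAs, had BCL11A peaks alone.
NORAD: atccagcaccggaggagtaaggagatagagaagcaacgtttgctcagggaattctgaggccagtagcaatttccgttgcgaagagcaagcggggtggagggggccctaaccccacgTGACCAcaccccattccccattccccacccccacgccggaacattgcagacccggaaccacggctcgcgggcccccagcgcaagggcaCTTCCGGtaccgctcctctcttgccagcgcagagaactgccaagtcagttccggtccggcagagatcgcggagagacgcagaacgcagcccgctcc
MALAT1: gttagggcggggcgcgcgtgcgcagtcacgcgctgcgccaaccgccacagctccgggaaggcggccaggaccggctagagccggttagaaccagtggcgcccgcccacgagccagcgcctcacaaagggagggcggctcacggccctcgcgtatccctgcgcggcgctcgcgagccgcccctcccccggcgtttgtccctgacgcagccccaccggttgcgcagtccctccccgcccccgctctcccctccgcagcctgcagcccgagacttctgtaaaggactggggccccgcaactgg

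Peaks at lncRNA gene ends were rare for both proteins and rarer for TR4. A group interval had a peak in at least 2 of a group's 3 libraries. The minimum stayed at 2 when 1 library was left out, so both of the remaining libraries had to have a peak. With the MYC antibody, 158 lncRNA intervals (0.883%) were group intervals in clone T, where the share over all gene ends was 6.93%. In clone B 390 (2.18%) were, against 12.2% of all gene ends. The TR4 antibody gave 129 intervals (0.721%) in clone T, against 6.35% of all gene ends, and 141 (0.788%) in clone TB, against 6.99%. The HA antibody gave 363 (2.03%) in clone B, against 11.4% of all gene ends, and 358 (2.00%) in clone TB, against 10.6%. The MYC antibody in clone TB gave 373 (2.09%), against 11.7%. Leaving out 1 library gave between 53 and 156 for MYC and between 61 and 125 for the TR4 antibody in clone T, between 86 and 134 for the TR4 antibody in clone TB, between 209 and 381 for MYC and between 200 and 344 for HA in clone B, between 220 and 343 for HA in clone TB, and between 297 and 342 for MYC in clone TB. Every one of the 7 shares was thus below that of all gene ends. At the ends of protein-coding genes the shares were 14.6% for MYC in clone T and 24.6% for MYC in clone B. In any of the 21 target libraries, 1127 lncRNA intervals had a peak and 16759 had none.

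Single libraries differed widely within a group. With the MYC antibody, clone T had 200, 219 and 62 lncRNA intervals with a peak in replicates 1, 2 and 3, and clone B had 493, 516 and 233. For the TR4 antibody these numbers were 138, 216 and 84 in clone T, with 175, 182 and 108 in clone TB. For the HA antibody they were 441, 458 and 224 in clone B, with 424, 467 and 282 in clone TB. The MYC antibody in clone TB gave 448, 426 and 374. The 9 TR4 libraries (62 to 219) thus lay below the 9 BCL11A libraries (224 to 516) without overlap. Replicate 3 had the fewest in each of the 7 groups. The lists themselves were 4621 to 14924 peaks long in TR4 and 12284 to 31432 in BCL11A libraries, and the part of list length in these counts was not tested apart from the shares and equal-length counts that follow. IgG lists, of 2036 to 4828 peaks, touched 23 intervals in clone T, 51 in clone B and 13 in clone TB.

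As a share of each library's own peaks, lncRNA intervals took slightly less of the TR4 lists than of the BCL11A lists. They held 1.67 ± 0.0548% of peaks in TR4 libraries (SD, n = 9; 1.59 to 1.76%) and 1.95 ± 0.0865% in BCL11A libraries (SD, n = 9; 1.84 to 2.07%), again without overlap. The difference of -0.279 percentage points passed an exact permutation test (two-sided, p = 4.11e-05, the smallest it allows; adjusted p = 0.000247 over 6 comparisons of share and rank). It was -0.247 for the MYC antibody and -0.35 within clone TB, where 3 libraries against 3 cannot go below 0.1 in the exact test (p = 0.1, adjusted p = 0.12 for both). With every list cut to the 4621 peaks of lowest q-value, the difference was -0.48 percentage points (exact permutation test, adjusted p = 0.000247). At coding gene ends the order was the other way round, with 55.1 ± 3.65% of peaks in TR4 and 40.7 ± 1.92% in BCL11A libraries (SD, n = 9 each; exact permutation test, two-sided, p = 4.11e-05). Per 100 peaks at coding ends, a measure added after the values were seen, there were 3.04 ± 0.193 at lncRNA intervals in TR4 and 4.80 ± 0.401 in BCL11A libraries.

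**Figure D1:**
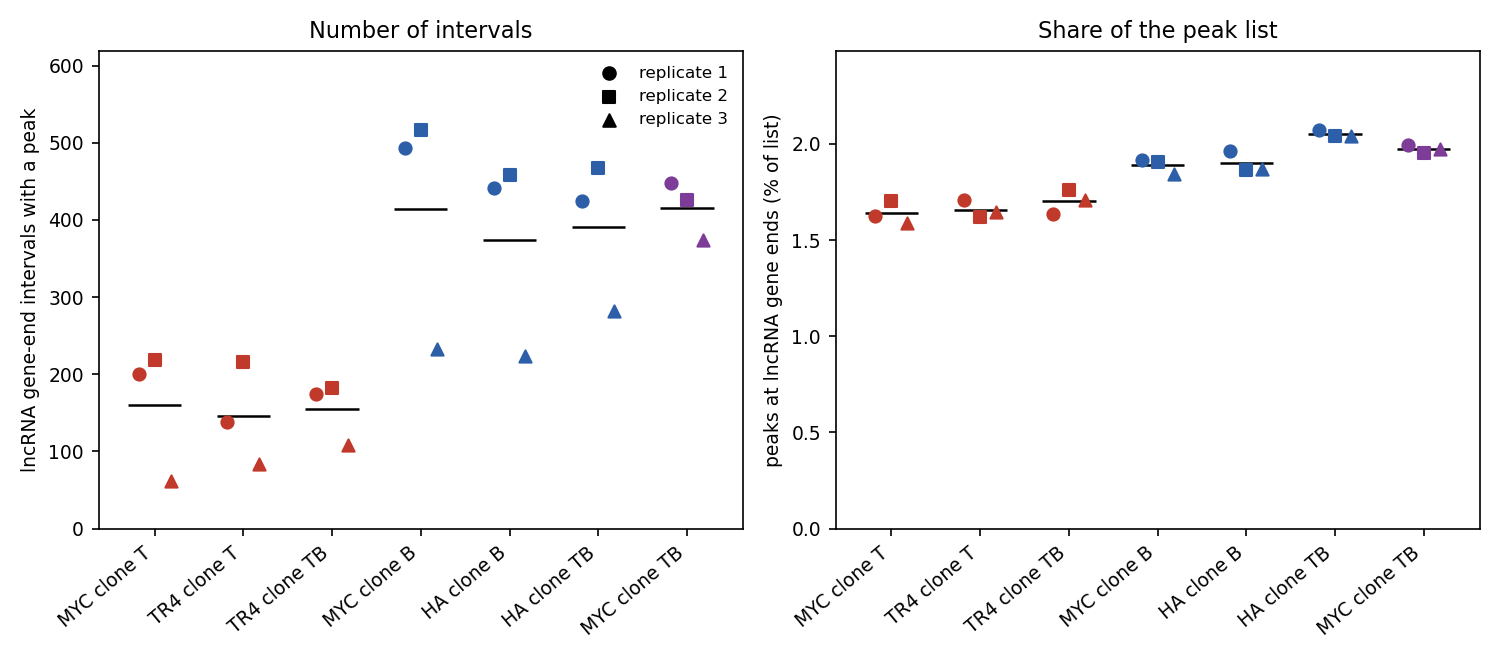
lncRNA gene-end intervals with a peak (left, number) and peaks at these intervals as a share of the list (right, %), by group. Each point is 1 library, with its shape for the replicate, and bars are group means; red groups read TR4, blue groups BCL11A, and purple reads both. All 9 red points lie below all 9 blue points in both panels.

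Peaks at lncRNA intervals ranked in the middle of their lists. The median fold percentile (the authors' fold enrichment ranked within its own library, 100 being the strongest) was 49.8 ± 2.24 in TR4 and 52.0 ± 1.92 in BCL11A libraries (SD, n = 9 each). The difference of -2.15 did not pass after adjustment (exact permutation test, p = 0.0457, adjusted p = 0.12). At coding gene ends the medians were 58.7 ± 1.98 in TR4 and 61.0 ± 1.46 in BCL11A libraries. Peaks that touched neither kind of interval had lower medians, 38.6 ± 3.10 in TR4 and 42.3 ± 0.575 in BCL11A libraries (SD, n = 9 each). In 18 of 18 libraries the lncRNA median lay below the coding one, with a mean difference of -8.91 ± 3.18 percentile points (SD, n = 18; exact sign-flip permutation test, two-sided, p = 7.63e-06, the smallest it allows, a comparison added after the values were seen).

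Peaks sat at the starts of lncRNA genes more than at their ends. Of the intervals with a known strand, 5257 were starts and 5268 ends. In TR4 libraries 1.53 ± 0.567% of starts and 0.382 ± 0.193% of ends had a peak, and in BCL11A libraries 3.80 ± 1.04% of starts and 1.21 ± 0.407% of ends (SD, n = 9 each). Starts exceeded ends in 18 of 18 libraries, by 1.87 ± 0.906 percentage points (exact sign-flip permutation test, two-sided, p = 7.63e-06, the smallest it allows). Coding genes had the same order, with 27.2 ± 7.86% of starts against 2.60 ± 0.943% of ends in TR4 libraries, and 40.7 ± 9.39% against 5.16 ± 1.44% in BCL11A libraries. Summits at lncRNA starts lay on both sides of the annotated start. Upstream of it were 62.8 ± 3.02% of summits in TR4 and 58.0 ± 2.73% in BCL11A libraries (SD, n = 9 each). Their median position was -54.2 ± 15.2 bases in TR4 libraries and -40.1 ± 14.7 bases in BCL11A libraries (SD, n = 9 each; negative is upstream). Within 250 bases of the start fell 65.1 ± 5.61% of the TR4 and 59.7 ± 3.31% of the BCL11A summits.

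**Figure D2:**
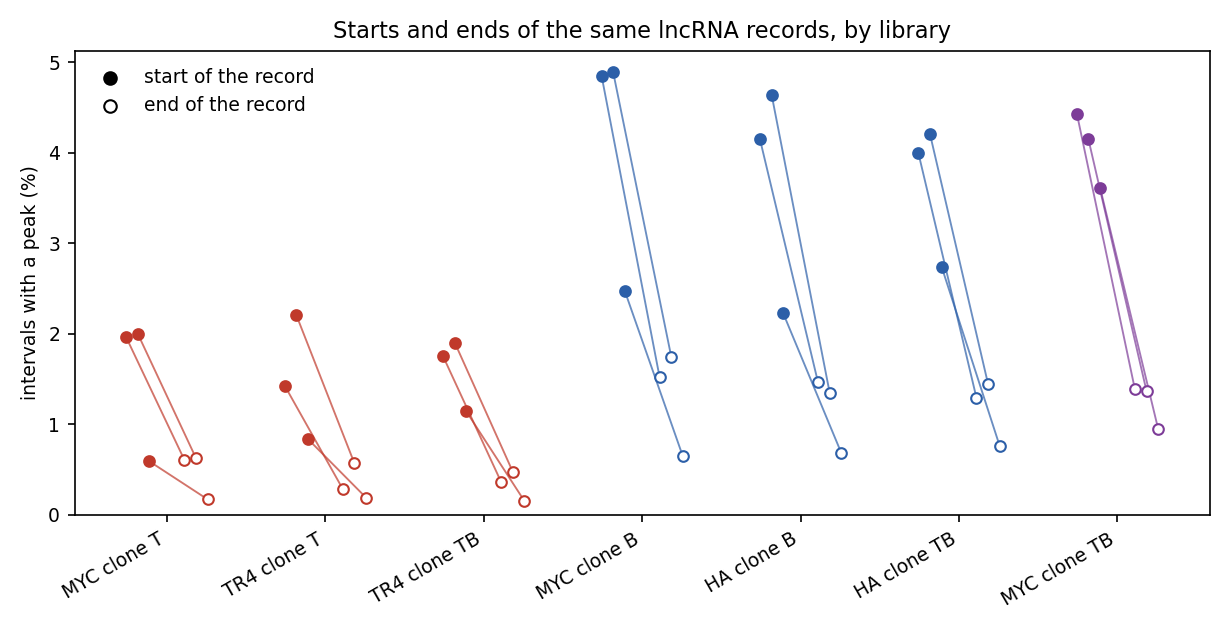
Share of lncRNA starts (filled) and ends (open) with a peak, in % of 5257 starts and 5268 ends without an IgG peak; each line joins the values of 1 library, red for TR4, blue for BCL11A and purple for both proteins. The filled point is the higher one in every library.

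In the lists as deposited, most TR4 intervals were also BCL11A intervals, and most BCL11A intervals were not TR4 intervals. With the MYC antibody, 130 lncRNA intervals at 109 loci were group intervals in both clone T and clone B, a class that held 6.34% of all gene ends. These were 82.3% of the clone T intervals and 33.3% of the clone B intervals. TR4 alone, with no peak in any MYC library of clone B, had 20 intervals at 18 loci, against 0.287% of all gene ends. BCL11A alone had 216 intervals at 195 loci, against 4.12% of all gene ends. Another 8 clone T intervals and 44 clone B intervals had a peak in 1 library of the other clone. At coding gene ends the shared part of the deposited lists was larger on both sides: 92.5% of clone T intervals and 54.9% of clone B intervals. TR4 alone made up 12.7% of the TR4 intervals at lncRNA genes and 3.33% at coding genes, and BCL11A alone 55.4% of the BCL11A intervals at lncRNA genes and 31.0% at coding genes.

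These classes changed most when replicate 1 or 2, with the longer lists, was left out. The short list of replicate 3 then had to hold a peak, as the minimum stayed at 2 libraries. Without replicate 1 or replicate 2 of MYC in clone T, the 20 intervals of TR4 alone came to 1, and those of both proteins to 51 or 50. Without replicate 1 or 2 of MYC in clone B, BCL11A alone came to 84 or 85. With all lists cut to 4621 peaks, clone T had 65 and clone B 85 group intervals, of which 32 were shared, 29 were TR4 alone and 40 BCL11A alone. The shared part was then 49.2% of the clone T intervals and 37.6% of the clone B intervals. At coding gene ends of the equal lists it was 47.6% of the clone T and 47.4% of the clone B intervals. On the TR4 side of this MYC comparison the larger share at coding genes was thus not kept.

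Clone TB had both proteins profiled in the same cells. There 109 lncRNA intervals were in both the TR4 and the HA group (77.3% of the TR4 intervals, 30.4% of the HA intervals; 6.21% of all gene ends). The TR4 antibody alone had 19 (0.35% of all gene ends) and the HA antibody alone 208 (2.97% of all gene ends). HA alone thus made up 58.1% of the HA intervals at lncRNA genes. With equal lists of 4621 peaks, 30 intervals were shared, 44.8% of the 67 TR4 intervals and 31.9% of the 94 HA intervals. At coding gene ends the shared parts were 47.8% and 58.9% with equal lists, and 89.8% and 62.4% in the lists as deposited. Without replicate 1 or 2 of the TR4 antibody, both proteins came to 71 or 69 and TR4 alone to 10 or 11, and without replicate 1 or 2 of HA, HA alone came to 117 or 111. Of the 129 TR4-antibody intervals of clone T, 108 (83.7%) were MYC intervals there, against 89.9% at coding gene ends. Of the 363 HA intervals of clone B, 308 (84.8%) were MYC intervals there, against 95.0% at coding gene ends. In reverse, 68.4% of the MYC intervals of clone T were TR4-antibody intervals, and 79.0% of those of clone B were HA intervals. At coding gene ends these reverse shares were 83.8% and 89.6%. Between clones, 101 of 141 TR4-antibody intervals of clone TB (71.6%) were found in clone T, and 291 of 358 HA intervals of clone TB (81.3%) in clone B. The shares at coding gene ends were 80.8% and 92.4%.

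In the test by interval, far more lncRNA intervals favoured BCL11A than TR4. It set the number of the 9 TR4 against the number of the 9 BCL11A libraries with a peak, with Fisher's exact test (two-sided) adjusted by Benjamini-Hochberg over the 14731 gene-end intervals with a peak in at least 4 of 18 libraries. Of the 17886 lncRNA intervals 440 passed that minimum. TR4-preferred were 8 of them (1.82%; 1.24% of all gene ends tested), at 7 loci. BCL11A-preferred were 145 (33.0%; 17.9% of all gene ends tested), at 128 loci. With all lists cut to 4621 peaks the split was 22 TR4-preferred against 36 BCL11A-preferred, and with the MYC libraries left out 3 against 43. For these alternatives the calls over all gene ends were not counted, so no share stands beside them. The median difference was -4 libraries over the 440 lncRNA intervals and -2 over all 14731.

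**Figure D3:**
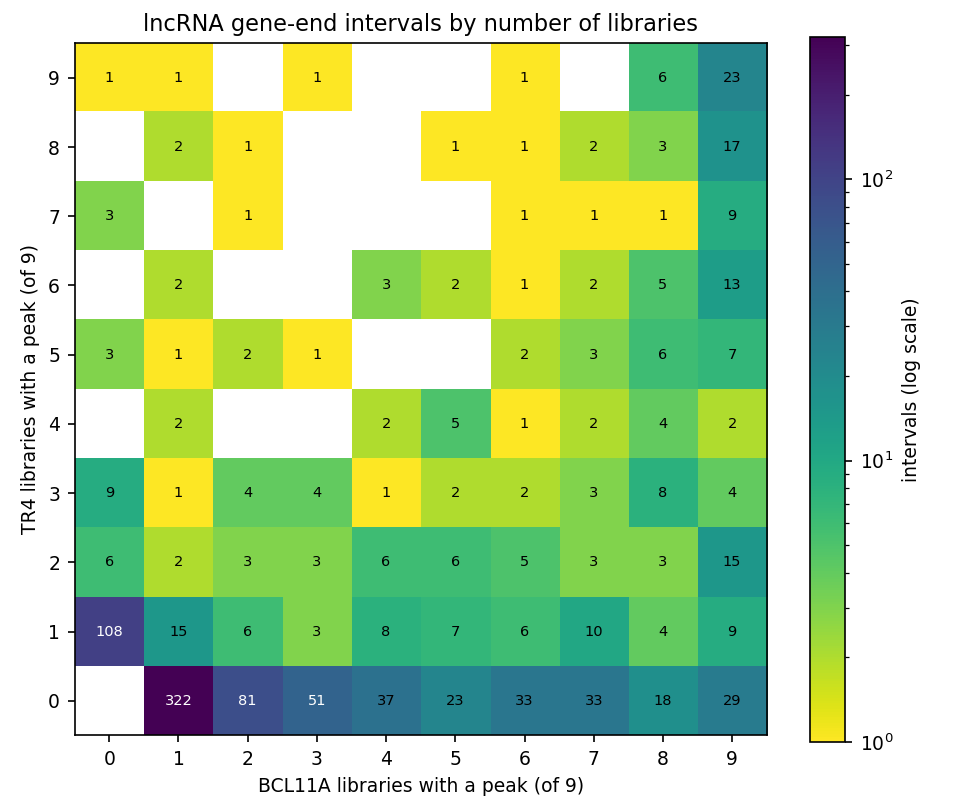
Number of lncRNA gene-end intervals (cell label, colour on a log scale) by how many of 9 TR4 (vertical) and 9 BCL11A (horizontal) libraries had a peak; blank cells hold none, and the 16759 intervals with no target peak are left out. The bottom row holds 29 intervals with all 9 BCL11A and no TR4 library, the left column 1 interval with the reverse, and the upper right corner 23 with all 18.

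A peak in all 18 libraries was found at 23 lncRNA intervals (0.129%) and at 1376 intervals of coding genes (3.63%). Of the 23, 10 held the end of another gene record, 7 of them a pseudogene (30.4%). Over all lncRNA intervals 2.33% held a pseudogene end, and over the 1127 with a target peak 4.70%, a description that was not tested. Of these, 5 belong to the FAM86 family (FAM86KP, FAM86HP, FAM86JP, FAM86EP and FAM86DP), next to LOC105369250, LINC02021, LOC102723696, LOC105374358 and LINC02018. All 5 lncRNA intervals at a FAM86 pseudogene end had a peak in all 18 libraries. FAM86 pseudogenes are known as duplicated copies. How reads were placed among them was not tested, and the 5 are not counted as separate observations. LINC02021 (chr3:130111707-130120569) had folds of 12.9 to 73.4 (median 41.0) in TR4 libraries and 16.3 to 47.3 (median 33.1) in BCL11A libraries. LINC02018 (chr3:75435308-75512177) had 10.7 to 38.2 (median 26.3) in TR4 and 12.2 to 54.7 (median 27.5) in BCL11A libraries.

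The interval with the highest rank over all 18 libraries held no other gene end. It is the start of LOC124901072 (chr5:135134362-135137054), 99573 bases from the nearest coding record, whose sequence is printed above. Its fold was 82.7, 77.8 and 24.3 with MYC in clone T and 22.2, 30.8 and 18.9 with MYC in clone B. The TR4 antibody gave 155, 128 and 114 in clone TB, and HA gave 32.3, 30.5 and 15.2 there. The MYC antibody in clone TB, reading both proteins, gave 192, 169 and 135. The mean percentile of its peak was 96.3 over TR4 and 95.0 over BCL11A libraries, and single libraries lay between 88.9 and 99.2. The median summit over the 21 target libraries lay at -236 bases from the start, negative values being upstream. Summits of the strongest peak lay between -242 and -236 in TR4 libraries and between -246 and -241 with HA in clone TB. In clone B they lay at -228, 26 and 26 with MYC and at 26, 26 and 11 with HA.

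MIRLET7A1HG, a host transcript of let-7 microRNAs, also had a peak in all 18 libraries at its start (chr9:94166258-94200905). Summits lay between -280 and 519 bases from that start (median -252.5), so the printed bases do not hold all of them. Folds were 7.88 to 17.5 (median 12.9) in TR4 and 13.9 to 38.7 (median 22.1) in BCL11A libraries, with mean percentiles of 69.2 over TR4 and 92.6 over BCL11A libraries. LINC00663 (chr19:19756371-19776413), at the end of the zinc-finger pseudogene ZNF56P, had the other order of ranks. Its folds were 24.6 to 76.7 (median 37.0) in TR4 and 8.26 to 24.8 (median 15.5) in BCL11A libraries, with mean percentiles of 93.8 over TR4 and 80.7 over BCL11A libraries. The start of LOC124901783 on chromosome 7 had mean percentiles of 28.8 in TR4 and 94.4 in BCL11A libraries, although all 18 had a peak; it was picked after its values were seen. FAM85B was the remaining interval among the 8 highest ranked.

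Of the 8 TR4-preferred intervals 5 lay at LOC symbols, against 73.1% of all these lncRNA records. The one interval with 9 TR4 and 0 BCL11A libraries was the end of LOC105379013 (chr5:68426312-68832857; Fisher's exact test, adjusted p = 0.00154). Its folds were 34.8, 28.4 and 16.4 with MYC in clone T, 33.0, 27.5 and 8.02 with the TR4 antibody in clone T, and 11.7, 10.0 and 8.24 with it in clone TB. No BCL11A list had a peak there. The MYC antibody in clone TB gave 21.5, 28.9 and 19.7. All summits lay 1007 to 1046 bases from the gene end, outside the interval that the peaks touched, so none would count if the summit were asked for in it.

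LOC101929863 (chr20:45137438-45139029) had the strongest TR4-preferred peak at a gene start. Its folds were 64.7, 85.4 and 12.5 with MYC in clone T, 43.8, 59.8 and 14.7 with the TR4 antibody in clone T, and 39.6, 44.1 and 26.5 with it in clone TB. Among BCL11A libraries, replicate 2 of MYC in clone B alone had a peak, with a fold of 11.5 (Fisher's exact test, adjusted p = 0.00594). The summits lay 41 to 69 bases downstream of the start. The printed sequence holds TGACCA on the reverse strand at base -199 from the start and AGGTCA on the reverse strand at base 26.

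LOC105375980 (chr9:14987301-14993195), LOC101928012 (chr7:112622381-112708072) and LOC105373903 (chr2:222739963-222780108) each had a peak in 7 TR4 and 0 BCL11A libraries (Fisher's exact test, adjusted p = 0.0187). Folds in TR4 libraries were 10.4 to 27.1 at LOC105375980, whose summits lay between -92 and -47 bases from the start, 8.42 to 31.8 at LOC101928012 and 6.49 to 21.2 at LOC105373903. At LOC105373903 the summits lay about 1 kb from the gene end, 3 of 7 outside the interval. Replicate 3 of MYC in clone T had no peak at any of the 3. LCDR and LINC00652 share 1 locus on chromosome 20, with a peak in 8 TR4 libraries (folds 5.35 to 19.5) and 1 BCL11A library (fold 8.57; Fisher's exact test, adjusted p = 0.0247). LINC03060 (chr7:134415566-134432420) had a peak in 9 TR4 libraries (folds 6.01 to 42.6) and in 3 BCL11A ones (6.70 to 11.3; Fisher's exact test, adjusted p = 0.0473). LOC101928505 (6 TR4 libraries and 1 BCL11A) and LOC105369908 (5 TR4 libraries and 0 BCL11A), in the class of TR4 alone, did not pass (Fisher's exact test, adjusted p = 0.156 and 0.103).

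The BCL11A side held 29 intervals with 9 BCL11A and 0 TR4 libraries, each at an adjusted p of 0.00154 in Fisher's exact test. How many of all gene ends had this pattern was not counted. Of the 29, the highest ranked was the start of PRECSIT (chr13:110863987-110870308), an lncRNA gene on chromosome 13, 8232 bases from the nearest coding record. Its folds were 31.9, 33.6 and 20.4 with MYC in clone B, 25.9 ± 2.48 with HA in clone B (SD, n = 3), and 34.9, 47.3 and 23.4 with HA in clone TB. No TR4 list had a peak there. The MYC antibody in clone TB gave 27.0, 21.6 and 19.4. Summits lay between -140 and -92 bases from the start, and the printed sequence holds TGACCA at base -108, its reverse complement at base -161 and AGGTCA at base -185.

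LINC02394 (chr12:74022080-74049981), 487854 bases from the nearest coding record, had folds of 48.7, 13.7 and 16.2 with MYC in clone B, 34.6, 14.3 and 14.4 with HA in clone B, and 45.0, 19.3 and 13.9 with HA in clone TB. TGACCA stands at base -103 from its start, and the median summit lay 58 bases downstream. The other intervals of this pattern that the ranking named were LINC02596 (folds 13.5 to 33.5), LOC124902703 (10.7 to 26.9), LOC124902629 (8.95 to 32.9), LOC105377083 (11.5 to 22.4), LINC00240 (6.79 to 30.3) and LINC03063 (7.76 to 25.8). LINC00240 shares its interval with the end of GUSBP2, a pseudogene of a repeated family. All 8 had a peak in 3 of 3 MYC libraries of clone TB.

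**Figure D4:**
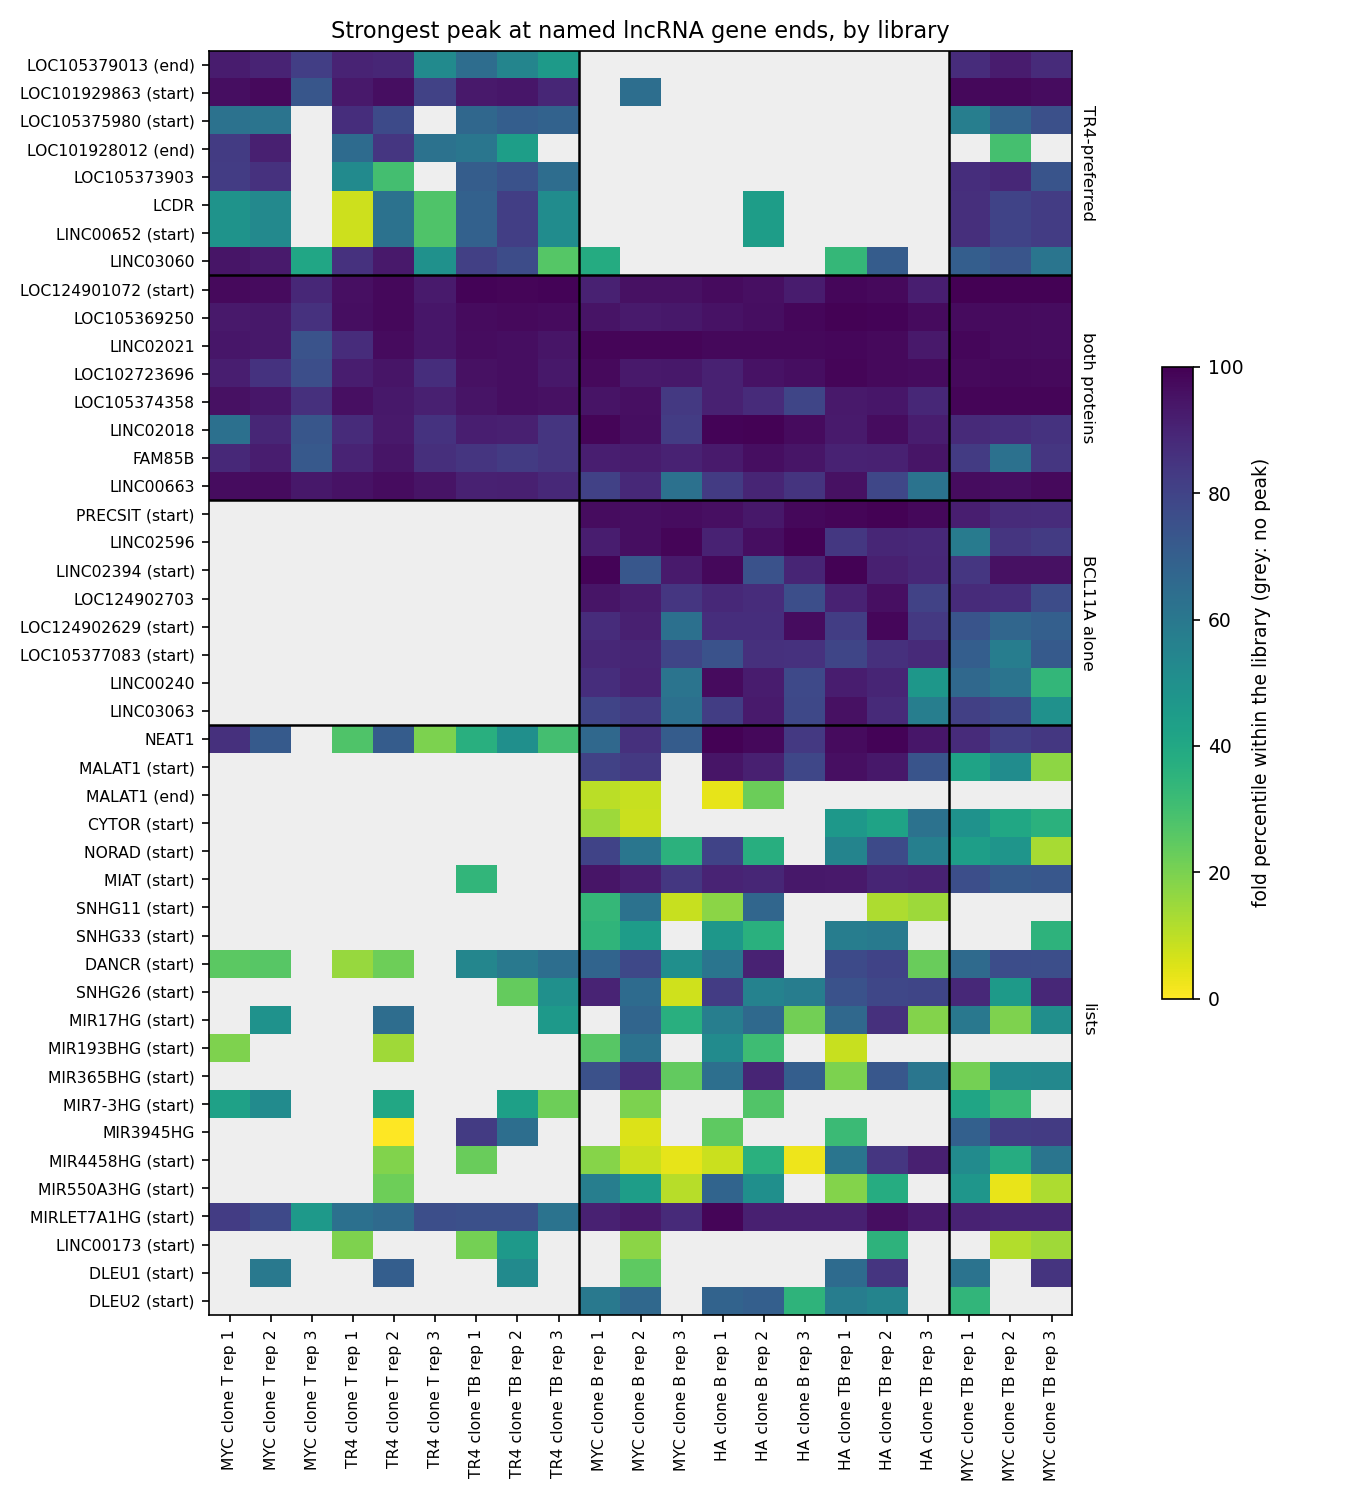
Fold percentile of the strongest peak within its own library (colour, 0 to 100; grey, no peak) at named lncRNA intervals (rows) in the 21 target libraries (columns). Vertical lines part the 9 TR4 libraries (left), the 9 BCL11A libraries and the 3 MYC libraries of clone TB; list genes (bottom) are those with a peak in at least 4 of 18 libraries. The BCL11A-alone rows are grey throughout the left block because they were ranked by BCL11A minus TR4 libraries with a peak.

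In 4 lists of well-known lncRNA genes the counts of BCL11A intervals were above those of TR4 intervals, the order that all these lncRNA records had: 1.61% had a MYC group interval in clone T and 3.95% in clone B. Beside the calls in each list stand the shares of all gene ends tested, 1.24% TR4-preferred and 17.9% BCL11A-preferred, and those of the 440 lncRNA intervals, 1.82% and 33.0%; nothing particular to a list is read from its counts. Of 11 widely expressed lncRNA genes, 6 were far enough from coding genes: 1 of these had a MYC group interval in clone T, 5 had one in clone B, and the clone T one, NEAT1, was shared. At NEAT1, the scaffold of nuclear paraspeckles, 8 TR4 libraries (folds 5.39 to 21.5) and 9 BCL11A libraries (9.98 to 46.0) had a peak. At the start of MALAT1, a neighbouring nuclear-speckle RNA, folds were 15.4 and 17.7 with MYC in clone B, 24.2, 23.5 and 11.2 with HA in clone B, and 25.2, 22.1 and 9.93 with HA in clone TB. No TR4 library and not replicate 3 of MYC in clone B had a peak there (Fisher's exact test, adjusted p = 0.00594). Summits spread from -288 to 57 bases from the MALAT1 start.

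NORAD, a cytoplasmic RNA that binds PUMILIO proteins, had a start peak in 8 BCL11A libraries (folds 6.48 to 15.3). No TR4 library had one there (Fisher's exact test, adjusted p = 0.00594). NORAD summits lay between -66 and 464 bases from the start, part of them beyond the printed bases. MIAT had a peak in 9 BCL11A libraries (12.5 to 26.8) and in 1 TR4 library (fold 7.04; Fisher's exact test, adjusted p = 0.00594), with all summits between -1084 and -1021 bases from its start, outside the interval. CYTOR, with 5 BCL11A and no TR4 libraries, did not pass (Fisher's exact test, adjusted p = 0.103). In the whole list 0 intervals were TR4-preferred and 3 BCL11A-preferred of 6 tested.

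Of 33 genes that host small nucleolar RNAs, 6 were members, of which 1 had a MYC group interval in clone T and 4 in clone B. Of 4 intervals tested, 0 were TR4-preferred and 3 BCL11A-preferred. SNHG11 (0 TR4 and 7 BCL11A libraries; Fisher's exact test, adjusted p = 0.0187), SNHG33 (0 TR4 and 6 BCL11A libraries; adjusted p = 0.0473) and SNHG26 (2 TR4 and 9 BCL11A libraries; adjusted p = 0.0187) were the 3 called, at their starts. DANCR carried both proteins, with 7 TR4 libraries (median fold 6.23) and 8 BCL11A ones (median fold 12.3). Its interval also holds the ends of MIR4449 and SNORA26.

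Of 82 microRNA host genes 49 were members, and 13 of these had a peak in any target library. Group intervals were found for 2 with MYC in clone T and for 7 with MYC in clone B. Of 8 intervals tested, 0 were TR4-preferred and 2 BCL11A-preferred. MIR365BHG was BCL11A-preferred, with 0 TR4 and 9 BCL11A libraries (folds 5.62 to 21.9; Fisher's exact test, adjusted p = 0.00154), as was MIR4458HG with 2 TR4 and 9 BCL11A libraries (Fisher's exact test, adjusted p = 0.0187). MIR17HG, the host of the miR-17-92 cluster, had a peak in 3 TR4 and 8 BCL11A libraries, and MIR550A3HG in 1 TR4 and 7 BCL11A libraries; neither passed (Fisher's exact test, adjusted p = 0.156 and 0.0683). MIR7-3HG had more TR4 (5) than BCL11A (2) libraries and did not pass either (Fisher's exact test, adjusted p = 0.617).

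Of 16 lncRNA genes tied to blood cells or leukaemia, 10 were members. None of them had a MYC group interval in clone T and 2 had one in clone B. MIR17HG and MIR155HG stand in the list of microRNA hosts as well and are counted in both. Of 4 intervals tested, 0 were TR4-preferred and 1 BCL11A-preferred. That one was at DLEU2, the host of miR-15a and miR-16-1, where peaks of 7 BCL11A libraries (folds 6.47 to 12.9) and of no TR4 one touched the start interval (Fisher's exact test, adjusted p = 0.0187). The summits of 6 of these 7 peaks lay over 1 kb downstream of the start, outside the interval, at up to 1104 bases, and 1 lay at -147 bases. DLEU1, its neighbour, had 3 TR4 and 3 BCL11A libraries, and LINC00173 had 3 TR4 and 2 BCL11A libraries. LUCAT1 had 1 of each, PVT1 had 1 BCL11A library, and MIR155HG had a peak in 1 MYC library of clone TB alone.

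Bound intervals lay closer to coding genes than unbound ones, though all were more than 5 kb away. Intervals of both proteins had a median distance of 22066 bases. It was 37864 where TR4 was alone and 29002 where BCL11A was alone, against 74870 for the 16759 intervals with no target peak. With MYC in clone T, 2.19% of intervals 5 to 10 kb away and 0.292% of those over 100 kb away were group intervals, and in clone B 4.24% and 0.835%. Bound intervals also more often held the end of another gene record, in 40% of those of both proteins, 35% of TR4 alone and 27.3% of BCL11A alone, against 11.4% of intervals with no target peak. By chromosome, 17 and 19 had the highest shares for both proteins. On chromosome 17 they were 2.81% with MYC in clone T and 6.63% in clone B, and on chromosome 19 3.30% in clone T and 5.13% in clone B. These are descriptions across intervals and were not tested.

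**Figure D5:**
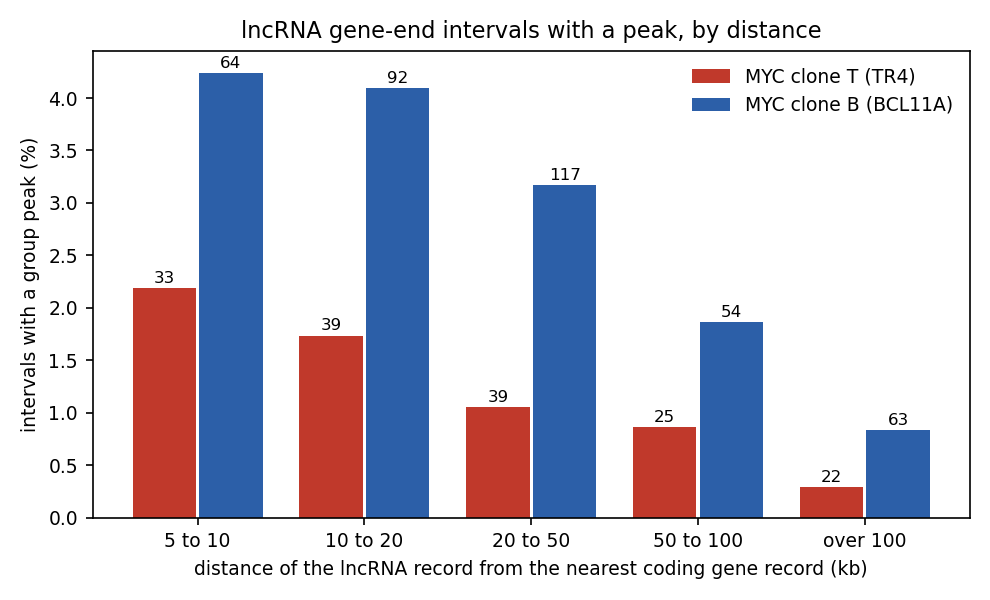
Share of lncRNA intervals that were MYC group intervals in clone T (red, TR4) and clone B (blue, BCL11A), in %, by distance of the lncRNA record from the nearest protein-coding record. Numbers above the bars are intervals; both shares are lowest over 100 kb.

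Starts with a peak were richer in GC than lncRNA starts without one. Over the 300 bases around the start, median GC was 63.3% for 71 starts of both proteins, 50.3% for 7 of TR4 alone and 59.0% for 117 of BCL11A alone, against 45.0% for 4777 lncRNA starts with no target peak and 63.0% for 14911 coding starts. A CpG ratio (observed over that given by the base composition) above 0.6 was found in 70.4% of starts of both proteins, 28.6% of TR4 alone and 44.4% of BCL11A alone, against 7.79% of lncRNA starts with no peak and 66.2% of coding starts.

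Motif letters were searched on both strands of the same 300 bases, with matches to one motif counted whether or not they overlapped another. TGACCA was in 8.45% of starts of both proteins, in 2 of 7 starts of TR4 alone and in 15.4% of those of BCL11A alone, against 15.2% of lncRNA starts with no peak and 10.9% of all 26246 promoters. AGGTCA was in 12.7% of starts of both, 2 of 7 of TR4 alone and 11.1% of BCL11A alone, against 18.8% of those with no peak and 13.9% of all promoters. A direct repeat of AGGTCA with 1 base between the half-sites (DR1) was in none of the 3 bound classes and in 0.0229% of all promoters. CCGGAAG was in 15.5% of starts of both, 1 of 7 of TR4 alone and 11.1% of BCL11A alone, against 2.70% of those with no peak and 10.7% of all promoters. GATAA, the core of GATA-factor sites, was in 19.7% of starts of both, 3 of 7 of TR4 alone and 18.8% of BCL11A alone, against 38.1% of those with no peak and 23.2% of all promoters. Base composition differs between these sets, and its part in the shares was not tested. A stretch of 60 bases was shared with another promoter by 21.1% of starts of both proteins, none of 7 of TR4 alone and 17.1% of BCL11A alone. Among starts with no peak it was 7.01%. Neighbouring records whose 300 bases overlap are part of this count, so it does not tell copies elsewhere from 1 place under more than 1 name. How reads were placed was not tested.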

How the data were processed

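Peak lists of 24 CUT&RUN libraries were analysed, 21 with a target antibody and 3 with IgG. Per the submitters' processing notes the build was GRCh38 and the tools included MACS2 2.1.4, a peak caller, with Bowtie2, Trimmomatic, SAMtools and Picard; which tool did what is not stated in these sources. The authors deposited 1 list per library, so peaks were called in each library apart. With each peak the authors gave its fold over background (a linear ratio), a −log10 q-value, a −log10 p-value, a whole-number score and a summit. The deposited score is 10 times the −log10 q, truncated, and was not used. Fold values served to describe peaks or to rank them inside a list, never to test one list against another. The lowest deposited −log10 q of a target library was 2.00 to 2.05. Depth per library is unknown, since reads were not used here.

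Gene positions, strands and start sequences came from RefSeq tables (GRCh38.p14) that give no exons, so exonic and intronic positions are not stated. A library had a peak at an interval when at least 1 base was shared. Python 3.11.15 with pandas 2.3.3, numpy 2.4.6, scipy 1.17.1 and matplotlib 3.10.9 was used. Intervals with a peak in at least 4 of 18 libraries entered Fisher's exact test, adjusted by Benjamini-Hochberg at 0.05 over all gene-end intervals; library means were compared with exact permutation tests. Replicate numbers were not used as pairs.

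Up to 8 records per class of the MYC comparison were named by number of libraries and then mean fold percentile, up to 8 by lowest p in each direction, and list members with any target peak; the text prints those its comparisons need. The intervals, lists and rules were chosen with earlier results of these data known. Alternatives covered interval width, distance, q-value, list length, IgG, summit, group threshold, overlapping intervals, the minimum tested, antibody, clone, replicate block and each library left out.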

Additional observations from a re-analysis of the deposited data

Results flagged for a closer look

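The excess of starts over ends differed between the targets. It was 1.15 ± 0.399 percentage points in TR4 and 2.59 ± 0.657 in BCL11A libraries (SD, n = 9 each), a difference of -1.43 (exact permutation test, two-sided, p = 8.23e-05; both sets above 0 in 9 of 9 libraries). BCL11A libraries had more lncRNA intervals in all, so the start's share of intervals with a peak was also compared, a measure added after the values were seen. It was 80.6 ± 3.90% in TR4 and 76.1 ± 1.96% in BCL11A libraries (exact permutation test, two-sided, p = 0.00535). For MYC alone it was 76.6% in clone T and 76.3% in clone B (n = 3 each; exact permutation test, p = 0.9, smallest possible 0.1). Within clone TB it was 83.7 ± 4.18% for the TR4 antibody and 76.1 ± 1.98% for HA (SD, n = 3 each), a difference of 7.64 with the smallest p this design allows (exact permutation test, two-sided, p = 0.1).

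The MYC libraries of clone TB, which enter no comparison of targets, had 20 group intervals at 18 loci that were group intervals in none of the other 6 groups, of 373 in all. IgG peaks were absent there by construction. How many of all gene ends had this pattern was not counted, so the 20 are not read as particular to lncRNA genes. The start of LOC124902266 on chromosome 9 had a peak in 3 of 3 of these libraries (fold 6.59 ± 0.673, SD, n = 3) and in 0 of the 18 others. The end of LINC01220 on chromosome 14 (fold 7.29 ± 0.079, SD, n = 3) had 3 TR4 and 2 BCL11A libraries with a peak, in no group at least 2. Both were picked after their values were seen.

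Of 12 sets of 9 libraries checked for 1 library far from the others, none was past Dixon's limit. Chance gives about 1 in 20. The check looks for 1 library only, so low values in several libraries at once, as in replicate 3, can go unseen.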

How the results depend on the processing

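No tested difference between library sets changed sign. Intervals of 500 bases to each side gave 5 TR4-preferred intervals in place of 8. Cutting all lists to 4621 peaks gave 65 group intervals for MYC in clone T and 85 in clone B, 32 of both (49.2% of the clone T intervals, against 82.3% as deposited) and 40 of BCL11A alone; in clone TB it gave 30 of both (44.8% of the TR4 intervals, against 77.3%), 29 of TR4 alone and 58 of BCL11A alone; 22 intervals were TR4-preferred and 36 BCL11A-preferred. Asking for a peak in 3 of 3 libraries gave 53 for MYC in clone T, 205 in clone B, 45 of both, 1 of TR4 alone and 82 of BCL11A alone, and in clone TB 56, 9 and 107. Leaving out the MYC libraries gave 3 TR4-preferred and 43 BCL11A-preferred. The difference in share was -0.247 for MYC and -0.35 within clone TB (exact permutation tests, adjusted p = 0.12), where 3 against 3 libraries cannot pass. Beyond fewer libraries or shorter lists, the cause was not tested. Preferred calls over all gene ends were not counted under these settings.

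Leaving out each library in turn gave 53 to 156 (MYC, clone T) and 209 to 381 (MYC, clone B) group intervals, 61 to 125 (clone T) and 86 to 134 (clone TB) for the TR4 antibody, and 200 to 344 (clone B) and 220 to 343 (clone TB) for HA. Both proteins came to 50 to 129, TR4 alone to 1 to 25 and BCL11A alone to 84 to 243; in clone TB these were 69 to 108, 10 to 26 and 111 to 229. TR4-preferred intervals were 8 to 12 and BCL11A-preferred 145 to 176, the share difference -0.292 to -0.264, the rank difference -2.71 to -1.80, and starts minus ends 1.78 to 1.95. The rank difference passed only without replicate 2 of MYC in clone T (exact permutation test, adjusted p = 0.0243; 0.0243 to 0.15 over the libraries left out).

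Deviations of same-numbered libraries from their group means had correlations of -0.022 to 0.0989 over 20959 intervals, all under 0.1. For replicate 3 they were 0.00427 for MYC in clones T and B and 0.0989 within clone TB. For the TR4 antibody in clone T against HA in clone B, replicate 3 had 0.0775. Libraries of different numbers had -0.0826 to 0.0649. The numbers were not taken as pairs, although replicate 3 had the fewest lncRNA intervals in all 7 groups. With the replicate number as a block there were 8 TR4-preferred and 154 BCL11A-preferred intervals, and the share difference of -0.279 had an adjusted p of 0.0015 in the exact permutation test within blocks (rank -2.15, adjusted p = 0.12). Tests of peaks merged over the whole genome held 470 lncRNA regions among 24485. Without depth, a missing peak cannot be told from a weak one.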
